A study of Mus musculus with 6 samples.

Results

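The 10 genes described here encode the core of the machinery that takes a cell from G1 into S phase: the D-type cyclins Ccnd1, Ccnd2 and Ccnd3, the E-type cyclins Ccne1 and Ccne2, the kinases Cdk2, Cdk4 and Cdk6, the inhibitor Cdkn1b (p27) and the pocket protein gene Rb1. They were taken by symbol from a table of 54232 genes, and each symbol matched 1 gene. RNA was sequenced from whole testes of mice at postnatal day 4, with 3 libraries labelled Dis3l2 WT and 3 labelled Dis3l2 cKO (conditional knockout), all with the strain given as B6D2F1 and no treatment named. Dis3l2 encodes an exoribonuclease that degrades RNAs with oligouridine tails, among them let-7 precursors. The labels name neither the Cre driver nor the deleted exons, and are silent on whether each library is a different animal, so p-values measure only the spread between these samples, which may be technical.

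D-type cyclins bind CDK4 and CDK6 in response to growth signals, and the complexes phosphorylate RB1, which then releases E2F factors. E2F factors raise transcription of S phase genes and of the E-type cyclins, which activate CDK2 and complete the inactivation of RB1. CDKN1B binds cyclin and CDK complexes and holds CDK2 inactive. In the testis of the newborn mouse, gonocytes leave their arrest and start to divide as spermatogonia, while Sertoli cells are still proliferating under follicle-stimulating hormone. Cyclin D2 is known as a target of that hormone in gonads and as a cyclin that spermatogonia gain as they differentiate, and p27 restrains Sertoli cell number. The question addressed was which of these transcripts moved with germ cell transcripts and which with those of the somatic cells that divide at this age.

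Totals ranged from 26126694 to 43265614 counts per library, the lowest in cKO replicate 1. That library also stood apart from the rest of its group: the chi-square per gene between it and cKO replicates 2 and 3 was 19.0 and 32.8, against 5.11 to 9.53 for the other pairs of the same group, and its summed stroma markers were at 13892 CPM against 10436 and 10535 CPM. For these markers cKO replicate 1 lay inside the WT range of 13089 to 14067 CPM, and cKO replicates 2 and 3 lay below it. Which cKO libraries are typical of the group was not tested. Values without cKO replicate 1 are given beside the results that it moved most. Mitochondrial transcripts took 2.58% to 2.86% of counts in WT and 2.90% to 3.34% in cKO. Their part in the results was not tested. The whole-gene level of Dis3l2 was 31.95 CPM in WT and 31.72 CPM in cKO (log2 fold change -0.01, edgeR adjusted p = 0.956), and counts over the whole gene do not check the genotype labels.

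The tissue label was checked against marker genes listed by cell type. The lists were chosen with earlier results of these data known, so they are no independent check. Ddx4, the germ cell helicase, had means of 110.1 and 53.2 CPM in WT and cKO, and Sox9, the Sertoli cell factor, 391.7 and 443.9 CPM. Ddx4 was called lower (edgeR adjusted p = 9.7e-07), while Sox9 overlapped and did not pass (0.159), with cKO replicate 1 at 385.1 CPM. Of the other checks, Dazl had means of 329.8 and 195.3 CPM (edgeR adjusted p = 1.3e-05). Amh had 293.7 and 358.4 CPM, with overlap (0.141). Of 30 germ cell markers 23 were called lower in cKO and 0 higher in edgeR, and 7 did not pass. The median log2 fold change was -0.72, with single markers from -1.44 to 0.87. Of 24 Sertoli cell markers 8 were called higher and 1 lower, and the median was 0.22. These Sertoli cell values depended on single libraries: 16 markers were called higher without cKO replicate 1 (median 0.29), 8 without cKO replicate 3 (median 0.13), 4 without cKO replicate 2, and 3, 5 and 5 without WT replicates 1, 2 and 3. With no filter on low counts 13 were called higher. Their summed levels did not overlap between groups: germ cell markers were at 1731 to 1819 CPM in WT and 991 to 1063 CPM in cKO, Sertoli cell markers at 8285 to 8531 and 9222 to 10172 CPM. Some listed markers are expressed in more than 1 cell type, such as Dmrt1, which germ cells share with Sertoli cells, and Nr5a1, which Leydig cells share with them. In whole testes, fewer cells of a type and less RNA per cell cannot be told apart.

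Cyclin D2 was the most abundant transcript of the group. Divided by the union exon length of each gene (RPKM, CPM per kilobase), Ccnd2 was at 81.7 ± 0.96 in WT (SD, n = 3), and Cdk4, the kinase that D-type cyclins activate, at 50.6 ± 1.2. The other 8 genes lay much lower, from Cdkn1b at 12.1 ± 0.27 RPKM through Ccnd1 at 10.3 ± 0.43 to Ccne1 at 4.71 ± 0.36 (SD, n = 3 each, WT). Between Ccnd1 and Cdk6 (7.03 ± 0.078) stood Ccne2 (9.13 ± 0.52), Cdk2 (9.10 ± 0.67), Ccnd3 (8.37 ± 0.32) and Rb1 (7.92 ± 0.28, all WT means in RPKM with SD, n = 3). The WT ranges of Ccne2 and Cdk2, of Cdk2 and Ccnd3, and of Ccnd3 and Rb1 overlapped, so the order among these neighbours is not settled. Each of the other neighbours in this order was separated by its range in WT. The order also rests on the union exon length, which can exceed the length of the transcripts present. Ccnd3 has a union of 8775 bases against 4709 for Ccnd1. Before division its WT mean, 73.4 CPM, was above the 48.5 CPM of Ccnd1. Which transcripts were present was not tested.

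**Figure D1:**
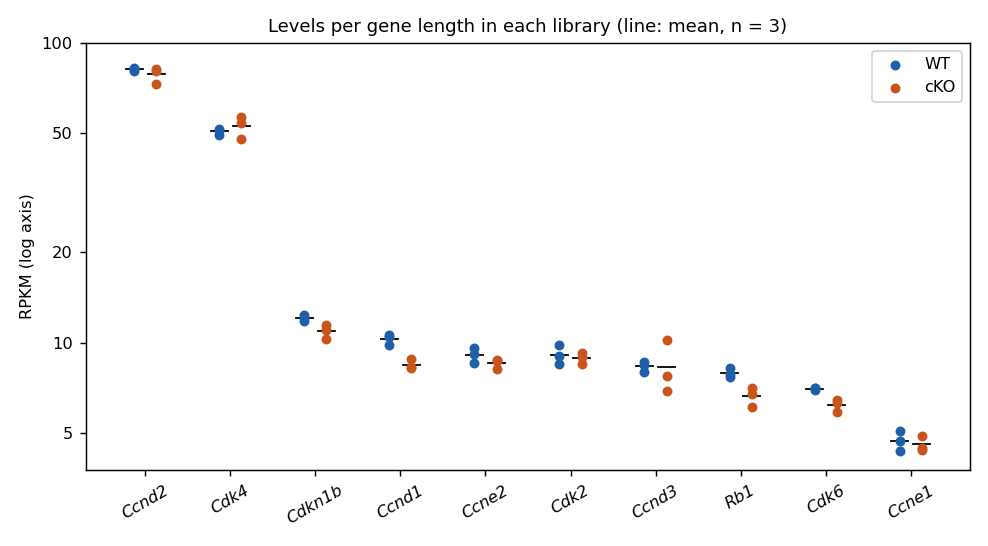
RPKM of the 10 genes on a log axis, 1 point per library, WT in blue and cKO in orange, with lines at the group means. Ccnd2 (81.7 RPKM in WT) and Cdk4 (50.6) stand above the other 8 genes, which lie at or below 12.1 RPKM on average.

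In cKO the order of the first 3 genes was the same, with Ccnd2 at 78.4 ± 5.0, Cdk4 at 52.7 ± 4.5 and Cdkn1b at 10.96 ± 0.59 RPKM (SD, n = 3 each). Ccnd1 had a mean of 8.46 ± 0.35 RPKM in cKO (SD, n = 3), inside the range of Ccnd3 there (6.92 to 10.2 RPKM). The level of Ccnd1 in cKO also lay below the means of Ccne2 (8.55) and Cdk2 (8.91 RPKM), with overlapping ranges.

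Because DIS3L2 acts on let-7 precursors and D-type cyclins and CDK6 have been described as let-7 targets, seed matches were searched in the longest annotated 3′ UTR of each gene. The mature let-7a-5p from RefSeq (GRCm38.p6 table) is shown first with its seed, bases 2 to 8, in capitals. The matches, read from GENCODE M21 transcripts, follow with the bases that pair with the seed, or with part of it and the A after it, in capitals, since they are where let-7 could meet these transcripts.
let-7a-5p: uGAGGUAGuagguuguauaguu
Ccnd1, chr7:144930598-144930620, minus strand: aggttcctgttcacaaTACCTCA
Ccnd2, chr6:127128300-127128322, minus strand: caaagagagtattcttTACCTCA
Ccnd2, chr6:127128222-127128244, minus strand: cttttcgttttcctaaTACCTCA
Ccnd2, chr6:127125586-127125608, minus strand: ttatccttctgccatgTACCTCA
Cdk4, chr10:127067658-127067680, plus strand: cctagggcccgaggcCTACCTCc
Cdk6, chr5:3521623-3521645, plus strand: atttaaggagtgagtgTACCTCA
Rb1, chr14:73196559-73196581, minus strand: actgacacagatttcaTACCTCA

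The letters searched were CTACCTC and TACCTCA on the transcript strand, and a run that holds both was counted once. In GRCm38, 5 of the 10 genes held a match, with 3 in Ccnd2 and 1 each in Ccnd1, Cdk4, Cdk6 and Rb1, against 15.1% of the 20644 3′ UTRs of protein-coding genes. Long 3′ UTRs hold more by length alone. Among 3′ UTRs within 20% of the same length, 26.03% held a match for that of Ccnd1 (2676 bases), 43.9% for Ccnd2 (5173 bases), 10.6% for Cdk4 (899 bases), 74.1% for Cdk6 (10217 bases) and 18.5% for Rb1 (1709 bases). For the genes without a match the same share was 30.2% for Cdkn1b, 17.9% for Ccne2, 12.8% for Cdk2, 10.3% for Ccnd3 and 6.4% for Ccne1. No match says only that these letters are not in the 3′ UTRs searched of Ccnd3, Ccne1, Ccne2, Cdk2 and Cdkn1b. Let-7 itself was not measured in these libraries.

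The change between groups was tested with the edgeR quasi-likelihood test over 20153 genes, in which 8.34% of genes were called (adjusted p under 0.05), 4.94% lower and 3.4% higher in cKO. Of the 10 genes, 1 fell, 0 rose and 9 did not pass, which is close to the share among all genes. In that fit 4 of the 10 genes had an unadjusted p under 0.05, all lower, where 23.3% of all genes had one (12.1% lower), and 0 were called higher in DESeq2 or limma-voom. Fitted values were below 0 for 9 of the 10, against 48.3% of all genes, and the median log2 fold change was -0.08, against 0.01 over all genes. In 4 of the 10 each cKO library was under each WT library, which held for 14.6% of all genes, and 0 of the 10 had all cKO libraries above, against 13.6%.

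Ccnd1 (ENSMUSG00000070348.5, chromosome 7, 144929931 to 144939925, GRCm38, minus strand), the cyclin that links growth factor signals to CDK4 and CDK6, was the gene that fell. It had 49.97, 49.36 and 46.17 CPM in WT replicates 1 to 3 and 38.97, 38.80 and 41.73 CPM in cKO replicates 1 to 3. The groups did not overlap, with the highest cKO library (41.73 CPM) below the lowest WT library (46.17 CPM). The mean went from 48.5 ± 2.0 to 39.8 ± 1.6 CPM (SD, n = 3 each), a log2 fold change of -0.28 (SE 0.07, 95% interval -0.43 to -0.14, edgeR adjusted p = 0.020), or a fall of 17.9% in the fitted level. The interval did not reach the germ cell median of -0.72, which is no bound for a transcript that other cells also express. The call depended on single libraries: without WT replicate 1, WT replicate 2 or cKO replicate 2 the log2 fold change was -0.26, -0.27 and -0.27, and the edgeR adjusted p was 0.102, 0.120 and 0.109. Without cKO replicate 1 it was -0.27 (edgeR adjusted p = 0.0084).

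Ccnd2 (chromosome 6, 127125162 to 127152193, minus strand), the cyclin of dividing Sertoli cells and differentiating spermatogonia, showed no difference that passed. Its levels were 759, 776 and 772 CPM in the WT libraries, compared with 683, 769 and 760.0 CPM in the cKO libraries. The low value is cKO replicate 1, and the 2 other cKO libraries lay inside the WT range. The log2 fold change was -0.06 (SE 0.05, 95% interval -0.18 to 0.05, edgeR adjusted p = 0.548), and -0.01 without cKO replicate 1.

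Ccnd3 (chromosome 17, 47505051 to 47599691, plus strand), the cyclin often found in differentiating cells, varied most among the cKO libraries relative to its level. It stood at 74.2, 70.4 and 75.8 CPM in the WT libraries, compared with 60.7, 68.1 and 89.7 CPM in the cKO libraries. cKO replicate 3 lay above all WT libraries and the other 2 below them, so that the SD was 15.03 CPM in cKO and 2.8 in WT (n = 3 each). The log2 fold change of -0.01 (95% interval -0.25 to 0.23, edgeR adjusted p = 0.974) moved with single libraries left out, to 0.10 without cKO replicate 1 and -0.19 without cKO replicate 3. A processed copy, Ccnd3-ps, matches 78.6% of a Ccnd3 transcript at 97.9% identity, and reads that mapped to both were not counted.

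Within the D-type cyclins the balance moved little. Ccnd1 made up 10.6%, 10.4% and 9.76% of the summed D-type reads per kilobase in WT and 9.43%, 8.43% and 8.88% in cKO, so that every cKO library lay below every WT library (exact two-sided permutation p = 0.1, the smallest that 3 against 3 allow, and 0.3 when adjusted over the 6 ratios compared). Ccnd2 held 81.4% ± 0.45 of the sum in WT, against 82.4% ± 1.4 in cKO (SD, n = 3 each), with overlapping libraries and an exact two-sided permutation p of 0.3. For Ccnd3 the share was 8.34% ± 0.35 and 8.69% ± 1.3 (SD, n = 3 each, exact two-sided permutation p = 0.9). These shares rest on the union exon lengths. With counts not divided by length, the difference for Ccnd1 was -0.75 percentage points instead of -1.35.

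The E-type cyclins, which drive CDK2 at the entry to S phase, both overlapped between groups, and Ccne1 had the lowest mean RPKM of the 10 genes. Ccne1 (chromosome 7, 38097984 to 38107534, minus strand) stood at 13.5, 11.6 and 12.5 CPM in the WT libraries, compared with 11.7, 11.9 and 13.04 CPM in the cKO libraries. It rested on 308 to 567 counts per library, the fewest of the 10 genes, and its log2 fold change was -0.03 (95% interval -0.26 to 0.19, edgeR adjusted p = 0.887), or -0.01 without cKO replicate 1. Ccne2 (chromosome 4, 11191351 to 11204779, plus strand) stood at 30.01, 32.1 and 33.6 CPM in the WT libraries, compared with 30.7, 28.5 and 30.4 CPM in the cKO libraries, with a log2 fold change of -0.09 (95% interval -0.26 to 0.07, edgeR adjusted p = 0.506), or -0.12 without cKO replicate 1. The share of Ccne1 in the 2 E-type cyclins per kilobase was 34.03% ± 2.7 in WT against 34.9% ± 1.4 in cKO (SD, n = 3 each, exact two-sided permutation p = 0.7). Both intervals held 0, and a fall of the size of the germ cell median lay outside both. That does not settle whether either follows germ cells, since other cells may also express them.

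**Figure D2:**
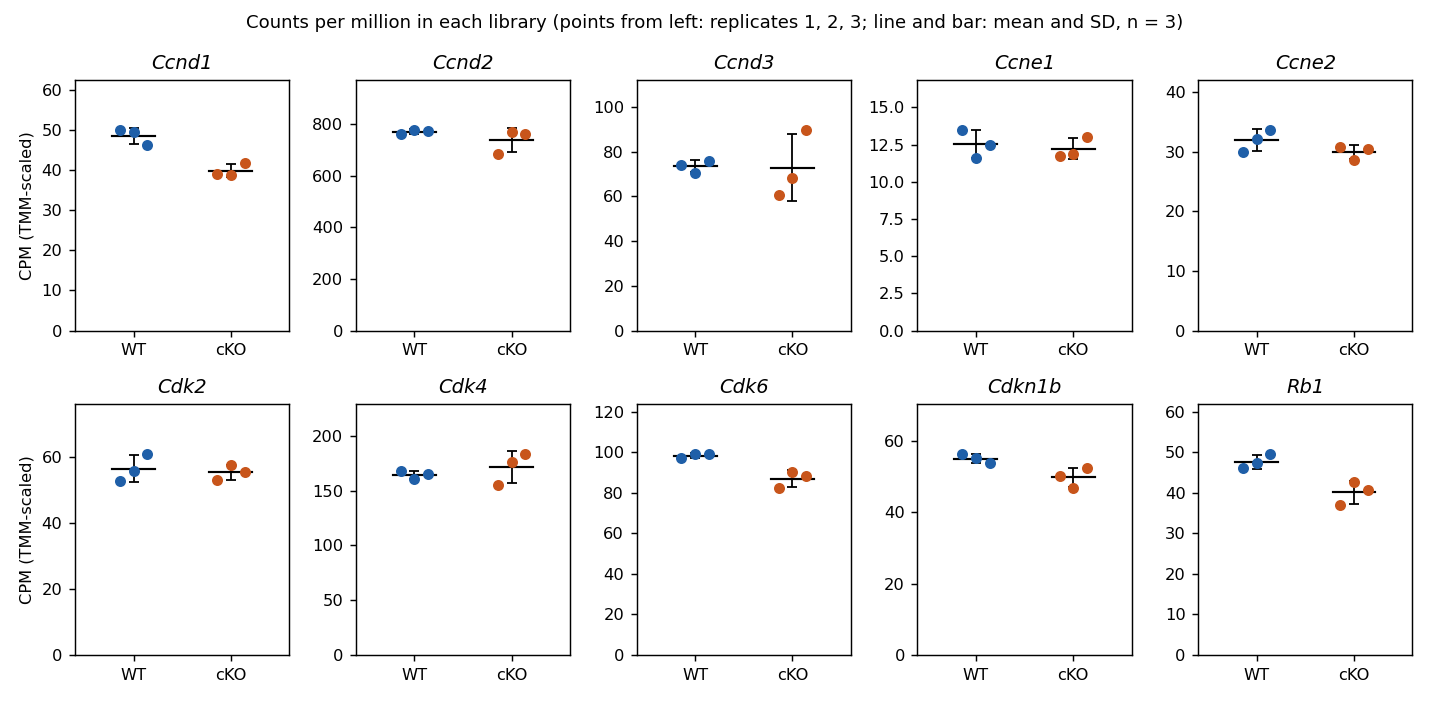
CPM of each gene in each library, with axes from 0; points from left to right are replicates 1 to 3, and the line and bar give the mean and SD (n = 3). Points of cKO are all under those of WT for Ccnd1, Cdk6, Cdkn1b and Rb1, and the groups overlap for the other 6 genes.

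Among the kinases, Cdk6 (chromosome 5, 3341485 to 3531008, plus strand) lay lower in every cKO library without passing the test. It stood at 97.1, 98.98 and 98.9 CPM in the WT libraries, compared with 82.1, 90.2 and 88.5 CPM in the cKO libraries, with the lowest value in cKO replicate 1. The log2 fold change was -0.18 (SE 0.06, 95% interval -0.30 to -0.06, edgeR adjusted p = 0.0755), and without cKO replicate 1 it was -0.14. It passed with library size alone as the scaling (-0.20, edgeR adjusted p = 0.0378) and when genes had to reach 1 CPM in 3 samples (-0.18, edgeR adjusted p = 0.0495).

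Cdk4 (chromosome 10, 127063534 to 127067920, plus strand), the partner of the same cyclins, was the 1 gene with a fitted value above 0. It stood at 167.8, 160.3 and 165.3 CPM in the WT libraries, compared with 154.9, 175.8 and 183.2 CPM in the cKO libraries, and the log2 fold change was 0.06 (95% interval -0.08 to 0.20, edgeR adjusted p = 0.637). Again cKO replicate 1 was lowest, while cKO replicates 2 and 3 lay above all WT libraries. Without cKO replicate 1 the log2 fold change was 0.12 (edgeR adjusted p = 0.0893), and without cKO replicate 3 it was 0.0049 (0.980). Cdk4 made up 88.2%, 87.5% and 87.8% of Cdk4 plus Cdk6 per kilobase in WT and 89.0%, 89.4% and 89.9% in cKO, with no overlap (exact two-sided permutation p = 0.1, 0.3 adjusted over the 6 ratios). The neighbour Tspan31 on the opposite strand shares 641 bases of exon sequence with Cdk4, and counting used the strand. Other genes of the group have such neighbours too, among them Ccnd1 with the longest overlap (LTO1, 1100 bases) and Ccne2 (Ints8, 609 bases).

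Cdk2 (chromosome 10, 128697939 to 128705031, minus strand), the kinase of the E-type cyclins, stood at 52.7, 55.99 and 61.0 CPM in the WT libraries, compared with 53.0, 57.6 and 55.7 CPM in the cKO libraries. The cKO libraries lay within the WT range (log2 fold change -0.03, 95% interval -0.18 to 0.12, edgeR adjusted p = 0.864). The sign changed without WT replicate 3 (0.03), and without cKO replicate 1 the value was 0.0002.

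The 2 brakes on the cycle were both lower in each cKO library, but neither passed. Rb1 (chromosome 14, 73183673 to 73325822, minus strand), which holds E2F factors until it is phosphorylated, stood at 46.1, 47.4 and 49.5 CPM in the WT libraries, compared with 36.9, 42.6 and 40.7 CPM in the cKO libraries. Its log2 fold change of -0.25 (SE 0.07, 95% interval -0.40 to -0.09) was close to that of Ccnd1 and lay just outside the threshold (edgeR adjusted p = 0.0518). It passed in DESeq2 (adjusted p = 0.0223), in limma-voom (0.0496) and without cKO replicate 1 (-0.20, edgeR adjusted p = 0.0459). With any other single library left out Rb1 did not pass, at an edgeR adjusted p from 0.0760 (cKO replicate 3) to 0.202 (WT replicate 3). Cdkn1b (chromosome 6, 134920401 to 134925513, plus strand) stood at 56.3, 55.2 and 53.9 CPM in the WT libraries, compared with 50.3, 47.0 and 52.3 CPM in the cKO libraries. The log2 fold change was -0.14 (95% interval -0.28 to -0.01, edgeR adjusted p = 0.194), and -0.15 without cKO replicate 1. Set against the D-type cyclins, Cdkn1b stood at 12.1 ± 0.32 per 100 D-type cyclin reads per kilobase in WT, against 11.6 ± 1.0 in cKO (SD, n = 3 each), with overlapping groups (exact two-sided permutation p = 0.5). The overlap came from cKO replicate 1 (12.6), since cKO replicates 2 and 3 (10.6 and 11.5) lay below the lowest WT library (11.8). The difference of -0.51 became -1.02 without cKO replicate 1 (exact two-sided permutation p = 0.2, the smallest that 3 against 2 allow) and -0.01 without cKO replicate 2.

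**Figure D3:**
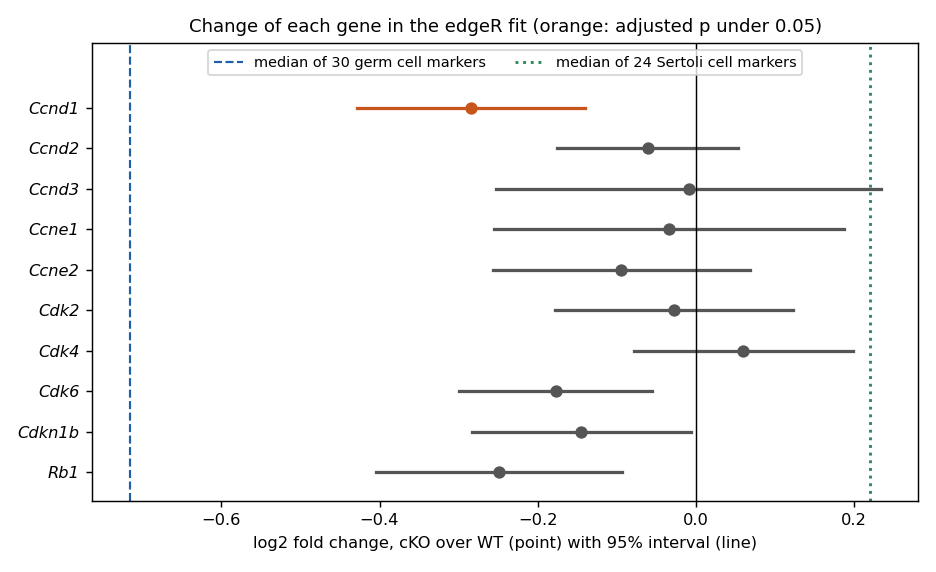
Log2 fold change of cKO over WT for each gene (point) with its 95% interval (line), Ccnd1 in orange as the gene past the threshold; the dashed and dotted lines are the medians of the germ cell (-0.72) and Sertoli cell (0.22) markers. All 10 intervals lie above the germ cell median, and that of Ccnd3 alone reaches the Sertoli cell median of 0.22, which ran from 0.13 to 0.29 with single libraries left out.

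Each gene was then set against the germ cell and the Sertoli cell markers of its own library, as its log2 CPM minus the mean log2 CPM of the markers. The germ cell mean was 4.55 ± 0.01 in WT against 3.91 ± 0.07 in cKO, and the Sertoli cell mean 7.11 ± 0.02 and 7.28 ± 0.10 (log2 CPM, SD, n = 3 each). Relative to germ cell markers all 10 genes were higher in each cKO library than in each WT library. The smallest difference was that of Ccnd1, at 1.05 ± 0.06 in WT against 1.41 ± 0.08 in cKO (SD, n = 3 each), a difference of 0.36. Rb1 (0.39), Cdk6 (0.46) and Cdkn1b (0.49) followed, then Ccne2 (0.55), Ccnd2 (0.58), Ccne1 (0.61), Ccnd3 (0.61), Cdk2 (0.61) and Cdk4 (0.70). For each the exact permutation test gave p = 0.1 (two-sided), also when adjusted over the 10 genes, and no smaller value is possible with 3 against 3 libraries. Since 1 marker mean is subtracted from all genes of a library, the order of these differences is nearly that of the genes' own changes. The marker means themselves moved, by -0.64 for germ cells and 0.17 for Sertoli cells. A gene with no change is thus set higher in cKO against the first and lower against the second. The share of all genes separated in this way was not computed.

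Relative to Sertoli cell markers 9 of the 10 genes were lower in each cKO library than in each WT library, and Ccnd3 overlapped. Ccnd1 had the largest difference, from -1.51 ± 0.08 to -1.96 ± 0.09 (log2 CPM, SD, n = 3 each), or -0.46. Rb1 was at -0.43, Cdk6 at -0.35, Cdkn1b at -0.32, Ccne2 at -0.27 and Ccnd2 at -0.24. Cdk4 moved least against the Sertoli cell markers, with -0.12. Ccnd2 stood at 2.48 ± 0.01 in WT against 2.24 ± 0.01 in cKO (SD, n = 3 each). The exact two-sided permutation p was 0.1 for these 9 genes and 0.4 for Ccnd3 (0.111 and 0.4 adjusted over the 10). With the markers' median instead of their mean, the separation held for Ccnd1 (-0.32), Rb1 (-0.29), Cdk6 (-0.22) and Ccnd2 (-0.10), each at p = 0.1 in the exact test. It was lost for Cdkn1b (-0.19, exact permutation p = 0.2), Ccne2 (-0.13, 0.4), Ccne1 (-0.07, 0.5), Cdk2 (-0.07, 0.5) and Cdk4 (0.02, of the opposite sign, 0.4), and Ccnd3 was at -0.07 (0.5). Ranked among the 10 genes by the size of their change, Ccnd1, Rb1 and Cdk6 thus lay nearest to the germ cell markers and Cdk4 nearest to the Sertoli cell markers. Cdk6 itself differed less from the Sertoli cell mean (-0.35) than from the germ cell mean (0.46). With the markers' medians the germ cell and Sertoli cell differences were 0.33 and -0.32 for Ccnd1, and 0.36 and -0.29 for Rb1. Differences between these genes were not tested. The lists hold no marker of division that is particular to somatic cells.

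**Figure D4:**
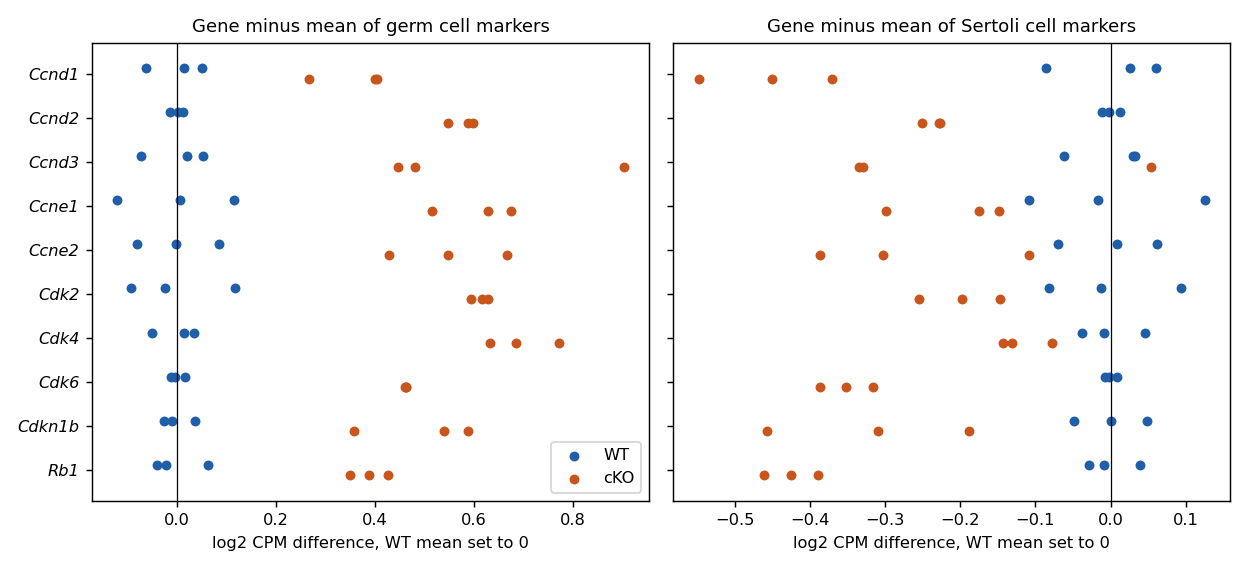
Log2 CPM of each gene minus the mean of the germ cell markers (left) or the Sertoli cell markers (right) of the same library, with the WT mean of each gene set to 0; WT in blue, cKO in orange. On the left all cKO points lie to the right of the WT points, least so for Ccnd1 (0.36); on the right, with the mean of the markers, they lie to the left except for 1 library of Ccnd3.

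The genes whose log2 CPM followed each cyclin most closely over the 6 libraries were sought among 11437 protein-coding genes whose mean reached 5 CPM. The 6 points share group, depth and cell composition, so r is given as a description. For Ccnd1 they were Ints6 (Pearson r = 0.996), Galnt6 (0.995) and D330045A20Rik (0.994), which all fell in cKO (log2 fold change -0.32, -0.997 and -0.97; edgeR adjusted p = 0.0043, 7.5e-04 and 0.0011). For Ccnd2 they were Taf1c (0.998), Mtmr9 (0.996) and Cyb561 (0.994), and for Ccnd3 Rfx1 (0.997), Ltbp3 (0.996) and Sh2b1 (0.992). Ccne1 was closest to Ext2 (0.976), Slc39a14 (0.975) and Hk1 (0.975), Ccne2 to Prelid3a (0.972), Arfgef3 (0.970) and Plxna4 (0.968), and Cdkn1b to Mfsd6 (0.992), 9930021J03Rik (0.992) and Ankrd46 (0.990). The genes named beside Ccnd2, Ccnd3, Ccne1, Ccne2 and Cdkn1b did not pass (edgeR adjusted p from 0.205 to 0.980). All were picked by likeness over these same libraries, so their changes are no separate evidence on the cyclins or Cdkn1b.

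Other genes of the G1 pathway were taken from lists by role. Of 95 tested in 5 lists, 16 fell, 79 did not pass and 0 rose (0 higher also at an unadjusted p under 0.05 and in DESeq2 and limma-voom). Their median log2 fold change was -0.10, against 4.94% of all genes called lower and a median of 0.01. Without cKO replicate 1 the same lists held 19 genes lower and 4 higher (Cdk2ap1, Kmt5a, E2f4 and Foxo3, named after their values were seen), and with a WT library or cKO replicate 2 left out 6 to 8 were lower. Of the 16 calls 4 were kept with every single library left out: Mcm6, Cenpf, Nek2 and Skp1a.

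Among the other CDK inhibitors Cdkn2a fell, and Cdkn1a, Cdkn1c, Cdkn2b, Cdkn2c and Cdkn2d did not pass (list median -0.11). Cdkn2a, which encodes the CDK4 and CDK6 inhibitor p16 and the p53 activator ARF, stood at 12.4, 11.005 and 11.5 CPM in the WT libraries, compared with 6.02, 7.28 and 8.97 CPM in the cKO libraries. Again the groups did not overlap, and the change of -0.64 on the log2 scale (SE 0.14, edgeR adjusted p = 0.014) was close to the germ cell median. The call was lost without any WT library or cKO replicate 2, with edgeR adjusted p up to 0.081. Counts over the gene do not separate the p16 and ARF transcripts.

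Of the 12 RB family and E2F genes 0 passed in edgeR, DESeq2 or limma-voom, while at an unadjusted p under 0.05 edgeR gave 1, and the median was -0.05. E2f1, the activator released by RB1, was at 51.4 ± 3.0 CPM in WT against 52.8 ± 3.0 in cKO (SD, n = 3 each, log2 fold change 0.04, edgeR adjusted p = 0.802). Of 22 tested regulators around the kinases 4 fell and 0 rose (median -0.09). They were Skp1a (-0.29, edgeR adjusted p = 0.0044) and Rbx1 (-0.26, 0.0456), subunits of the ubiquitin ligase that removes p27 and cyclin E, Ccnh (-0.35, 0.0088), the cyclin of the CDK-activating kinase, and Foxo1 (-0.29, 0.0063), a transcription factor present in gonocytes and spermatogonia. Rbx1 lost its call without any library but cKO replicate 1, Ccnh without WT replicate 1 or cKO replicate 2, and Foxo1 without WT replicate 2.

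Of 30 E2F target and S phase genes 7 fell and 0 rose, with a median of -0.15. Mcm6, a subunit of the replication helicase, stood at 256.1, 249.6 and 240.9 CPM in the WT libraries, compared with 178.3, 197.3 and 193.2 CPM in the cKO libraries (a log2 fold change of -0.39 with SE 0.05, and an edgeR adjusted p of 9.6e-04). The origin recognition gene Orc1 (-0.40), the helicase factor Cdc45 (-0.38), the single-strand binding gene Rpa2 (-0.36), the methylation factor Uhrf1 (-0.26), the helicase gene Mcm4 (-0.20) and cyclin A2, Ccna2 (-0.17), fell as well, each losing its call without at least 1 library (edgeR adjusted p of 0.0905 to 0.213 at the highest). Of these, Mcm6 was the gene that kept its call throughout. Of 25 G2 and mitosis genes 4 fell and 0 rose (median -0.09): cyclin B1, Ccnb1 (-0.40), the centrosome kinase Nek2 (-0.33), the kinetochore gene Cenpf (-0.28) and the checkpoint kinase Ttk (-0.28). The call of Ttk was lost when any WT library or cKO replicate 2 was left out, and that of Ccnb1 without WT replicate 3. Mki67, a marker of all dividing cells, was at 1304 ± 33 CPM in WT against 1315 ± 45 in cKO (SD, n = 3 each, log2 fold change 0.01, edgeR adjusted p = 0.911).

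**Figure D5:**
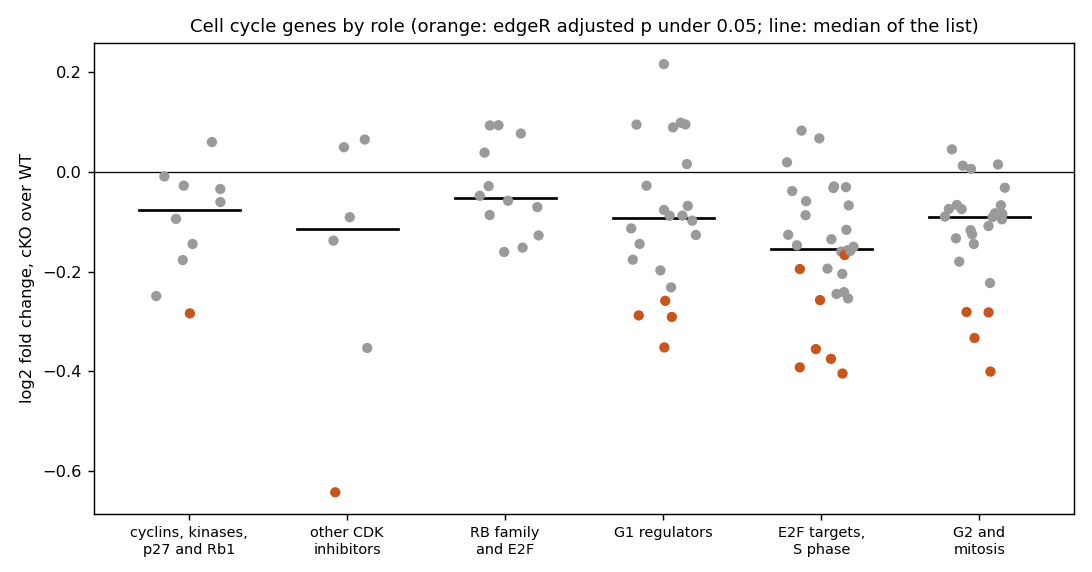
Log2 fold change of cKO over WT for the 10 genes and for the 95 tested genes of the 5 other lists, 1 point per gene, with genes past the threshold in orange and the list median as a line. Calls are all below 0, the largest being Cdkn2a (-0.64), and the list medians lie between -0.15 and -0.05.

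Markers of other cell types moved with the groups as well. Summed macrophage markers were at 166 to 186 CPM in WT and 220 to 228 CPM in cKO, Leydig cell markers at 1144 to 1148 and 1225 to 1339 CPM and endothelial markers at 699.6 to 728 and 741 to 824 CPM, with no overlap between groups. Stroma markers overlapped, at 13089 to 14067 CPM in WT and 10436 to 13892 CPM in cKO, as did red blood cell markers (26.1 to 49.1 and 29.2 to 40.3 CPM), while duct epithelium markers were lower in each cKO library (62.8 to 72.4 and 49.2 to 60.6 CPM). Called genes, higher and lower, were 5 and 0 of 20 macrophage, 4 and 1 of 13 Leydig cell, 2 and 0 of 15 endothelial, 2 and 2 of 17 stroma, 0 and 0 of 5 red blood cell (none at an unadjusted p under 0.05) and 0 and 2 of 11 duct epithelium markers tested. No matched marker of these lists was at 0 in all 6 libraries. Their part in the cyclin results was not tested.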

How the data were processed

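The deposited tables hold raw gene counts, which the authors made with featureCounts 1.6.4 on GENCODE M18 gene models with reads on the gene's strand, per the file headers. Multi-mapped reads and reads over more than 1 gene were not counted. The submitters' processing notes name cutadapt, HISAT2 and GRCm38.p5. The gene length in the file is the union of exons. Of 54232 genes, 54165 were named from GENCODE M21, and 0 columns were left without a sample.

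The filter was filterByExpr (at least 10 counts, 15 in total); 20153 genes stayed in, with TMM scaling. Groups were compared with edgeR 4.0.16 (quasi-likelihood, R 4.3.3, two-sided) with Benjamini-Hochberg adjustment over all genes kept, and genes with an adjusted p under 0.05 are said to have risen or fallen. Alternatives used DESeq2 1.42.0 and limma 3.58.1. CPM used TMM-scaled library sizes, and log2 CPM a prior count of 2. Near copies were sought with minimap2 (at least 95% identity over at least 30% of a transcript). The edgeR procedure was also run on simulated data. The changes planted there were larger than that of any of the 10 genes, so the run says nothing about changes of their size. The genes and lists were chosen with earlier results of these data known, and 2 listed names matched no gene. Named are the 10 genes, up to 6 called genes with the lowest p per pathway list, and the 3 most alike genes per cyclin and Cdkn1b. Ddx4, Dazl, Sox9 and Amh are checks of the tissue. E2f1, Mki67, Ccna2, Dmrt1 and Nr5a1 fall outside this rule and were named after their values were seen.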

Additional observations from a re-analysis of the deposited data

How the results depend on the processing

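The direction of Ccnd1, Ccnd2, Ccne2, Cdk4, Cdk6, Cdkn1b and Rb1 held in all 14 alternatives of the all-gene fit. The number of the 10 genes called lower was 2 with DESeq2 size factors, with no filter, in DESeq2, in limma-voom and with the replicate block, and 3 with library size alone and with at least 1 CPM in 3 samples, and it ran from 0 to 2 with single libraries left out; the cause was not tested. The genes added were Rb1 and, in the latter 2 settings, Cdk6. Genes called lower among all 20153 tested were 1017 with DESeq2 size factors, 1226 in DESeq2, 1053 in limma-voom and 1058 with the replicate block. Library size alone gave 1200 of 20153, no filter 1191 of 43855, and at least 1 CPM in 3 samples 1098 of 15860. Library size alone also moved the median log2 fold change of all genes from 0.0096 to -0.0097. With single libraries left out, genes called lower ran from 387 to 1705 and higher from 236 to 1670, both highest without cKO replicate 1 (996 and 685 with all 6 libraries), and pathway genes ran from 6 to 19 lower and from 0 to 4 higher. Signs turned for genes near 0. Leaving out single libraries gave log2 fold changes from -0.1909 to 0.1015 for Ccnd3 (0.0139 without WT replicate 3, 0.0368 without cKO replicate 2), from -0.0882 to 0.0226 for Ccne1 (above 0 without WT replicate 1) and from -0.0758 to 0.0293 for Cdk2 (above 0 without WT replicate 3, and 0.0002 without cKO replicate 1). The share of Ccnd3 differed by -0.4214 to 0.7526 percentage points and that of Ccne1 by -0.0241 to 2.4418, below 0 without cKO replicate 3 and WT replicate 2. Cdk4 minus the Sertoli cell level was 0.0162 with the median of the markers. The cause was not tested.

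Same-numbered libraries of both groups correlated in their deviations at 0.132, 0.098 and 0.176 for numbers 1, 2 and 3. Each library correlated best with its own number, but not every pair passed 0.1, so the numbers were not taken as pairs; the replicate block moved genes called lower from 996 to 1058 and the 10 genes from 1 to 2. Precision was limited by 3 libraries a group, and Ccne1 rested on no more than 567 counts.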
